A study of Rattus norvegicus with 20 samples.

Results

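Voltage-gated sodium channel genes were examined in the nucleus accumbens, the ventral part of the striatum and a hub of reward learning, of rats that self-administered cocaine. The 8 genes were selected by symbol from a count table of 17296 symbols: the alpha subunit genes Scn1a, Scn2a, Scn3a, Scn8a and Scn9a and the beta subunit genes Scn2b, Scn3b and Scn4b. Earlier results on these counts were in view when the genes were chosen, among them a longer list of voltage-gated ion channels that stood higher in antibiotic-treated rats, so that the fold changes and p-values below are descriptions. All 8 genes were in the table, and all 8 passed the filter on low counts that left 12846 genes to test.

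The study asked how microbial short-chain fatty acids bear on drug seeking and transcription. All rats were male Sprague-Dawley (WT) animals aged 7 to 9 weeks, housed 2 to a cage, and what differed was the drink: plain water for 5 rats (H2O), antibiotics for 4 rats (Abx), short-chain fatty acids for 6 rats (SCFA), or both together for 5 rats (Abx_SCFA). Which antibiotics and doses were used is not given in the sources used here, cage mates cannot be recognised in the labels, and all groups share the cocaine exposure, so that none shows these genes in drug-free rats. Rats given fatty acids have rat numbers in the 4-hundreds and those without them in the 2- and 3-hundreds, and wherever a group with fatty acids is set against one without, treatment and number series cannot be told apart.

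A voltage-gated sodium channel is built around 1 large alpha subunit, which forms the pore and the voltage sensor and opens within a fraction of a millisecond of depolarisation to start the action potential. Beta subunits are small membrane proteins with an immunoglobulin-like domain that tune gating and surface delivery of the alpha subunit and act in cell adhesion. Medium spiny neurons, the projection neurons that make up most of this region, are silent for much of the time and fire when cortical and other inputs drive them, and sodium channels of the dendrites and the axon initial segment set how readily they do so.

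The libraries held 17525358 to 25731636 counts. Markers of medium spiny neurons were abundant: the 16 genes of that list were detected in each library and summed to 10843 to 14132 CPM (counts per gene scaled to library size) in H2O, 10168 to 13986 in Abx, 11431 to 12902 in Abx_SCFA and 6692 to 13575 in SCFA. Markers of cortical excitatory neurons, a cell type of neighbouring tissue, were present in varying amounts. Of 14 such genes 13 were in the table, and they summed to 161 to 501 CPM in H2O, 219 to 869.6 in Abx, 341 to 651 in Abx_SCFA and 243 to 1746 in SCFA, with Neurod1 at 0 in at least 1 H2O library. SCFA replicates 2 and 5 had the highest Slc17a7, which loads glutamate into vesicles of cortical neurons (695 and 1059 CPM), and the lowest Drd1, the D1 dopamine receptor (208 and 171 CPM). The 16 myelin genes summed to 15905 to 23963 CPM in H2O, 7175 to 15067 in Abx, 12297 to 21759 in Abx_SCFA and 6706 to 25659 in SCFA. In such bulk tissue, fewer cells of a type and less RNA per cell cannot be told apart.

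In RefSeq, Scn1a, Scn2a, Scn3a and Scn9a lie on chromosome 3, Scn8a on chromosome 7, and Scn2b, Scn3b and Scn4b on chromosome 8. Of the 8 genes 6 matched a RefSeq promoter of the GRCr8 assembly by symbol, and the 2 without an entry are Scn1a and Scn3b. A choice of 3 is shown, each as the 250 bases before the annotated start, 5′ to 3′ on the gene's strand: Scn4b and Scn2b, beta subunit genes that shared part of their variation between rats, and Scn8a, an alpha subunit gene whose r with Scn4b over the libraries was -0.16. Capitals mark GGGCGG, the core of the GC box, and CAGCTG, an E-box, on either strand.
Scn4b, chr8:54343623-54343872, GRCr8, + strand: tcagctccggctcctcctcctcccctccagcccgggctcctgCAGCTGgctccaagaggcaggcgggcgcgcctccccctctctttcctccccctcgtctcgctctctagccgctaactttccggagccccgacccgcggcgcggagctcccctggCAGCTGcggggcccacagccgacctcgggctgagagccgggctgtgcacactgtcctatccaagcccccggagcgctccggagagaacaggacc
Scn2b, chr8:54322133-54322382, GRCr8, + strand: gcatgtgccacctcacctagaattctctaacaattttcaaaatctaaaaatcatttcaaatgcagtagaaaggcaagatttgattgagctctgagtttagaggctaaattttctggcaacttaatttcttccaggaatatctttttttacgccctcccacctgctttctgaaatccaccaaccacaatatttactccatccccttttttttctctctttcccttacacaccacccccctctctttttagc
Scn8a, chr7:133860977-133861226, GRCr8, + strand: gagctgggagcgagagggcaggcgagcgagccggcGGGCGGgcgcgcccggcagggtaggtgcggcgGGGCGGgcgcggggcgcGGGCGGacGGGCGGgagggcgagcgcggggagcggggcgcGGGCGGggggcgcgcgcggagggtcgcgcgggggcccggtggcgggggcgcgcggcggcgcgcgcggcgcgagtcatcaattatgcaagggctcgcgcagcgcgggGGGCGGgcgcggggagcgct

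The 3 windows differ in base composition. G and C make up 86% of the Scn8a window, 71.6% of the Scn4b window and 38.8% of the Scn2b window, against a median of 51.2% over 33469 promoters. In the other matched genes, the share was 39.6% in Scn2a, 41.6% in Scn3a and 52.4% in Scn9a. GGGCGG stood 6 times in the Scn8a window and in no other of the 6, and 30.5% of all promoters hold it. CAGCTG stood 2 times in the Scn4b window and in no other of the 6, against 12% of all promoters. Of 13 motifs searched on both strands after sequences and values had been seen, 1 more was found, TGANTCA, in Scn3a only (6.34% of all promoters). No window of the 6 held TGACG (18.2% of all promoters) or TGACGTCA, which contains it (1.59%), TATAAA (12.9%), CCAAT (34%), CACGTG (5.59%) or the longer CLEAR motif around it (0.203%). The same was true of the NRF1 motif (0.762%), of the REST motif (0.0269%) and of its left part, TTCAGCACC (0.305%), and right part (0.108%). These are matches of letters in a window, not sites.

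Among the alpha subunit genes, Scn1a encodes a channel best known from fast-spiking interneurons. It was read at 61.4, 53.2, 51.9, 65.2 and 49.8 CPM in H2O and at 56.0, 65.9, 71.8 and 76.2 CPM in Abx. It was read at 54.0 at the lowest, 56.5 at the median and 74.1 at the highest in SCFA, and at 50.5, 60.4, 53.5, 50.6 and 48.2 CPM in Abx_SCFA. The 3 highest Abx libraries lay above all H2O and Abx_SCFA libraries, while the lowest Abx library lay inside both ranges. Group means were 56.3 ± 6.65 CPM (SD, n = 5) in H2O, 67.5 ± 8.76 (n = 4) in Abx, 52.7 ± 4.72 (n = 5) in Abx_SCFA and 59.3 ± 7.51 (n = 6) in SCFA.

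Scn8a encodes the main channel of nodes of Ranvier and of the mature axon initial segment. Its levels were 146, 144, 163, 149 and 165 CPM in H2O and 179.9, 156, 206.8 and 205 CPM in Abx. In SCFA it was at 129 at the lowest, 163 at the median and 236 at the highest, and in Abx_SCFA at 154, 166, 156, 166 and 144 CPM. The H2O and Abx_SCFA libraries were close together, 3 of 4 Abx libraries lay above both, and the SCFA libraries spanned the whole range. The means were 154 ± 9.99 CPM (SD, n = 5) in H2O, 187 ± 24.0 (n = 4) in Abx, 157 ± 9.36 (n = 5) in Abx_SCFA and 169.6 ± 38.0 (n = 6) in SCFA. In RefSeq the gene overlaps the pseudogene Crip2-ps1, and without a stated strand setting reads of both cannot be told apart.

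Scn9a, best known from peripheral pain-sensing neurons, was read at 232 to 622 counts per library. It stood at 23.8, 20.5, 25.4, 28.0 and 16.5 CPM in H2O, and at 14.4, 26.7, 19.7 and 19.1 CPM in Abx. It stood at 11.9 at the lowest, 19.0 at the median and 25.2 at the highest in SCFA, and at 21.0, 19.8, 16.8, 18.2 and 14.99 CPM in Abx_SCFA. The lowest libraries of all were SCFA replicates 2 and 5, which also had the highest Slc17a7, and the highest was H2O replicate 4. All 4 groups overlapped, with means of 22.8 ± 4.49 CPM (SD, n = 5) in H2O, 19.96 ± 5.07 (n = 4) in Abx, 18.2 ± 2.38 (n = 5) in Abx_SCFA and 18.2 ± 5.21 (n = 6) in SCFA. This gene too overlaps a pseudogene in RefSeq, LOC134486320.

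Scn2a, the channel of unmyelinated axons and of the initial segment of many projection neurons, ran from 343 to 429 CPM in H2O, 398 to 455 in Abx, 363 to 440.1 in Abx_SCFA and 312.2 to 518 in SCFA. Its lowest and its highest library were both SCFA libraries, replicates 1 and 5. Scn3a, a channel that prevails before birth and is lower in the adult rodent brain, ran from 113 to 138 CPM in H2O, 115 to 140.3 in Abx, 110.3 to 117 in Abx_SCFA and 91.2 to 139 in SCFA. The 5 Abx_SCFA libraries of Scn3a had the smallest SD relative to the mean among the 8 genes and 4 groups, an SD of 2.4 CPM around a mean of 113 CPM.

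Among the beta subunit genes, Scn4b is abundant in striatal medium spiny neurons and its protein is tied to the resurgent sodium current. It was read at 743, 794, 675, 542 and 604 CPM in H2O and at 644, 648, 943 and 623 CPM in Abx. In SCFA the 6 libraries held 688, 398, 529, 755, 379 and 609.7 CPM, and in Abx_SCFA the gene stood at 618, 704, 704, 856 and 762 CPM. SCFA replicates 2 and 5 were the lowest of all 20 libraries and Abx replicate 3 the highest, a range of 2.49-fold. The group means were 671 ± 102 CPM (SD, n = 5) in H2O, 715 ± 153 (n = 4) in Abx, 729 ± 87.9 (n = 5) in Abx_SCFA and 559.8 ± 153 (n = 6) in SCFA.

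Scn2b, whose product is linked to the alpha subunit by a disulfide bond as that of Scn4b is, was read at 99.1, 121, 100.2, 93.5 and 85.1 CPM in H2O and 86.1, 98.5, 116 and 106 CPM in Abx. It was read at 75.2, 76.0, 76.7, 105, 89.3 and 88.4 CPM in SCFA and 101, 92.6, 96.2, 105 and 85.6 CPM in Abx_SCFA. The lowest 3 SCFA libraries lay below every library of the other groups, and the other 3 lay inside the H2O and Abx ranges. Scn3b, whose product binds without such a bond, ran from 367 to 478 CPM in H2O, 405.9 to 493 in Abx, 391 to 459.7 in Abx_SCFA and 339 to 477 in SCFA.

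**Figure D1:**
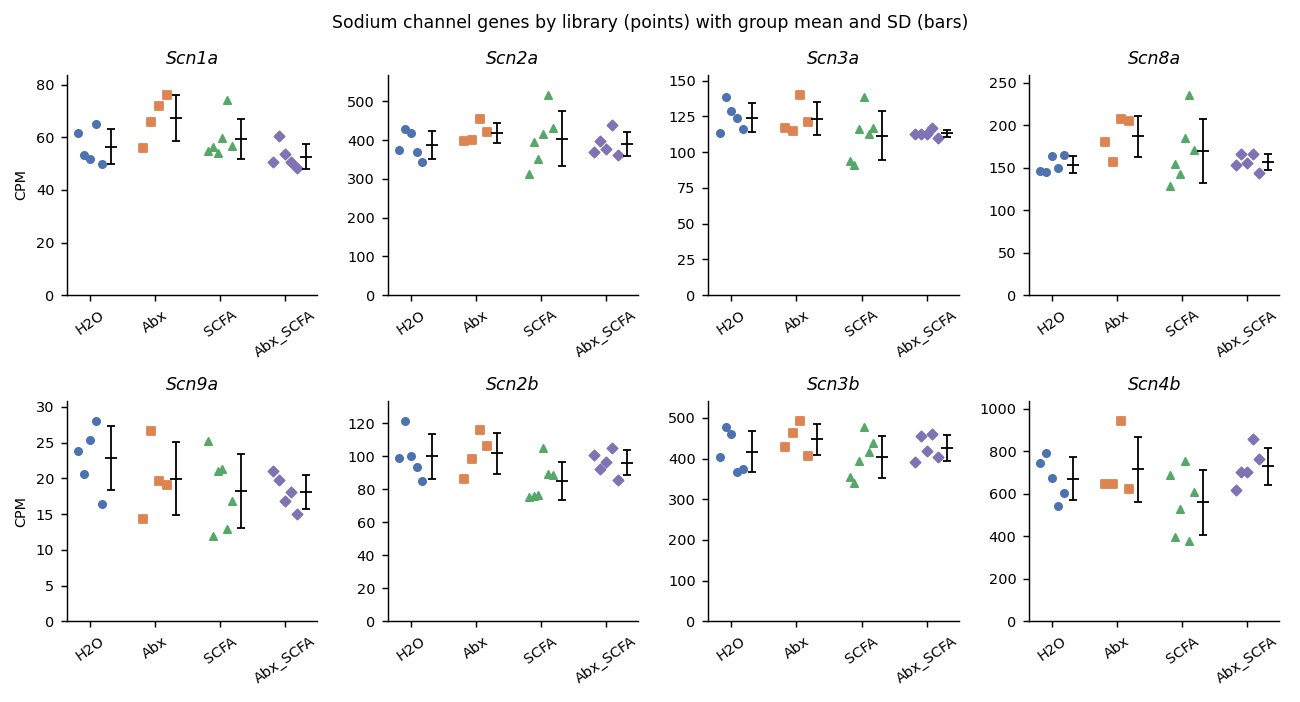
Level of each sodium channel gene in CPM (vertical axes, from 0) in the 20 libraries, by drink group on the horizontal axes; points are libraries, and bars give the group mean and SD. The groups overlap for all 8 genes; in Scn4b, Abx replicate 3 (943 CPM) stands above the other Abx libraries, and SCFA replicates 2 and 5 (398 and 379 CPM) below all others.

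The order of the group means was not the same from gene to gene. Abx had the highest mean for Scn1a, Scn2a, Scn8a, Scn2b and Scn3b, H2O for Scn3a and Scn9a, and Abx_SCFA for Scn4b. For each of the 8 genes, groups next to each other in that order differed by less than the larger of their 2 SDs. Spread within groups was widest for Scn9a (coefficient of variation 22.6%), Scn4b (19.2%) and Scn8a (14.8%) and between 10.3% and 12.1% for the other 5 genes. The median over the 9299 genes of at least 10 CPM was 9.17%, below all 8 genes, and over all genes tested it was 11.4%, above Scn3a (10.3%) and Scn3b (10.6%).

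Reads fell on the alpha subunit genes in similar proportions in the 4 groups. Scn2a took 52.0 ± 2.04% of the alpha subunit counts in H2O (SD, n = 5), 51.3 ± 1.12% in Abx (n = 4), 53.3 ± 1.33% (n = 5) in Abx_SCFA and 52.9 ± 2.21% (n = 6) in SCFA. These are shares of reads, not of transcripts, since longer transcripts give more reads and transcript lengths were not used here. The share of Scn3a was 15.8 to 17.6% in H2O, 14.4 to 15.7% in Abx, 14.8 to 16.2% in Abx_SCFA and 11.8 to 16.9% in SCFA. The H2O and Abx ranges lie next to each other without overlap, at 15.8% for the lowest H2O and 15.7% for the highest Abx library. For every other sodium channel gene, the H2O and Abx ranges of the share overlapped. Scn3a was thus picked from the shares of all these genes. No test of the shares was run, and how often chance alone parts such ranges was not computed. The level of Scn3a itself had means of 124 CPM in H2O and 123 CPM in Abx. Among the beta subunit counts, Scn4b took 56.4 ± 2.23% in H2O, 56.2 ± 3.15% in Abx, 58.2 ± 2.37% in Abx_SCFA and 52.7 ± 6.39% in SCFA. The SCFA group spread most, from 42.9 to 61.6%.

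Against these values, 6 comparisons were fitted over all 12846 genes. None of the 8 sodium channel genes passed an adjusted p of 0.05 in any of them with edgeR, DESeq2 or limma-voom, and 0% of all genes passed with edgeR in each of the 6. The smallest adjusted p of a sodium channel gene with edgeR was 0.303, for Scn2b in SCFA vs H2O. What follows gives log2 fold changes with standard errors (SE) and 95% intervals, and the number of genes at an unadjusted p below 0.05, read against the share of all genes at an unadjusted p below 0.05. The groups overlapped for 8 of 8 genes in the 5 comparisons between groups, so that 0 of 8 were free of overlap. Among all genes, 2.46% had groups that do not overlap in Abx vs H2O, 0.537% in SCFA vs H2O, 1.42% with both treatments against water, 1.20% in Abx_SCFA vs Abx and 0.560% in Abx_SCFA vs SCFA.

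With antibiotics alone (Abx vs H2O), Scn1a and Scn8a stood furthest above water. The log2 fold change of Scn1a was 0.26 ± 0.10 (SE; 95% interval 0.04 to 0.48, edgeR adjusted p = 0.563), and that of Scn8a was 0.28 ± 0.13 (edgeR adjusted p = 0.563). These 2 of 8 genes were at an unadjusted p below 0.05, as were 8.79% of all genes. Scn2a was at 0.11 ± 0.11, Scn3b at 0.10 ± 0.10, Scn4b at 0.09 ± 0.18, Scn2b at 0.03 ± 0.11 and Scn9a at -0.20 ± 0.21, all with intervals that span 0, and the fitted value of Scn3a was close to 0. The median over the 8 genes was 0.10, with 6 above 0, against a median of all genes of -0.008.

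Both number series hold H2O and Abx rats, and fold changes of the myelin and cortical lists lay mostly to one side of 0, with 0 of their genes past an adjusted p of 0.05. Within the 2-hundred series (2 Abx and 2 H2O rats) the Abx minus H2O difference in log2 CPM was 0.09 for Scn1a and 0.21 for Scn8a, and within the 3-hundred series (2 Abx and 3 H2O rats) it was 0.42 and 0.37. Scn2b and Scn4b had opposite signs in the 2 series, at -0.25 and 0.26 for Scn2b and -0.25 and 0.34 for Scn4b. All 16 myelin genes had a negative fold change in Abx vs H2O and 12 of 13 cortical genes a positive one, and their ranges are given above. With the mean log2 CPM of the myelin list as a covariate, the log2 fold change was 0.08 for Scn8a and 0.14 for Scn1a. With that of the cortical list it was 0.09 for Scn8a and 0.23 for Scn1a. Neither gene was at an unadjusted p below 0.05 with either of these covariates. Both genes were at such a p with the mean log2 CPM of the medium spiny neuron list as a covariate. Scn9a, at -0.20 without a covariate, turned to 0.30 with the cortical score and was then at an unadjusted p below 0.05. Among single libraries left out, Scn1a was no longer at such a p without H2O replicate 5, Abx replicate 3 or Abx replicate 4, at 0.23, 0.24 and 0.21, and Scn8a without H2O replicate 1, 2 or 4 or Abx replicate 3 or 4, at 0.24 to 0.28, and Scn8a also without H2O replicate 4 and Abx_SCFA replicate 5 together.

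With fatty acids alone (SCFA vs H2O), the 3 beta subunit genes had negative fold changes. Scn2b was at -0.23 ± 0.10 (SE; 95% interval -0.43 to -0.03, edgeR adjusted p = 0.303). Scn4b was at -0.26 ± 0.17 (95% interval -0.61 to 0.08) and Scn3b at -0.05 ± 0.09. Among the alpha subunit genes, Scn9a was at -0.33 ± 0.19, Scn3a at -0.15 ± 0.09, Scn8a at 0.14 ± 0.11, Scn1a at 0.08 ± 0.09 and Scn2a at 0.06 ± 0.10. Of the 8 genes 1, Scn2b, was at an unadjusted p below 0.05, against 13.8% of all genes, a larger share than in the other comparisons. The median over the 8 genes was -0.10, with 3 above 0, against a median of all genes close to 0.

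The 16 medium spiny neuron markers all had negative fold changes in SCFA vs H2O, with a median of -0.31, beside 12 of 13 positive ones among the cortical markers. Without SCFA replicates 2 and 5, the log2 fold change of Scn4b was -0.05 and that of Scn2b was -0.21, no longer at an unadjusted p below 0.05. With the mean log2 CPM of the medium spiny neuron list as a covariate, Scn4b was at 0.10 and Scn2b at -0.11. Scn2b was at -0.15 with the cortical score, and it was at an unadjusted p below 0.05 with neither of these scores. Scn9a turned from -0.33 to 0.25 with the cortical score. Leaving out H2O replicate 2, the highest in Scn2b at 121 CPM, gave -0.15 for that gene, likewise, and SCFA replicate 1, 2 or 3 left out gave -0.20 each time.

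With both treatments (Abx_SCFA vs H2O), 0 of 8 genes were at an unadjusted p below 0.05 with edgeR, DESeq2 or limma-voom, against 5.56% of all genes. The fold change furthest from 0 was that of Scn9a, -0.33 ± 0.20 (SE; 95% interval -0.74 to 0.08), and its sign turned, to 0.16, once the cortical score was added to the fit. Scn3a was at -0.13 ± 0.09, Scn4b at 0.12 ± 0.17, Scn1a at -0.10 ± 0.10 and Scn2b at -0.06 ± 0.10, and Scn2a, Scn8a and Scn3b were within 0.04 of 0. The median over the 8 genes was -0.02, with 4 above 0. This comparison shares its H2O libraries with the 2 before it.

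Between both antibiotic groups (Abx_SCFA vs Abx), Scn1a had the smallest p of any sodium channel gene in the 6 comparisons. Its log2 fold change was -0.36 ± 0.10 (SE; 95% interval -0.58 to -0.14), a ratio of 0.780. Ranked by p it was number 10 of 12846 genes, with an edgeR adjusted p of 0.999. It was the only one of 8 genes at an unadjusted p below 0.05, against 3.19% of all genes. Scn8a was at -0.25 ± 0.13 (95% interval -0.52 to 0.01), and the 5 alpha subunit genes all had negative values, with a median of -0.14 against a median of all genes close to 0. Over the 8 genes the median was -0.11, with 1 above 0. The value of Scn1a stayed between -0.44 and -0.30 when any 1 library was left out. With the cortical, medium spiny neuron and myelin scores as covariates it was -0.36, -0.35 and -0.31. This comparison shares its Abx libraries, with the opposite sign, with Abx vs H2O, so that the values of Scn1a in both are not independent.

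Between both fatty acid groups (Abx_SCFA vs SCFA), which share 1 number series, Scn4b was the gene furthest from 0. Its log2 fold change was 0.38 ± 0.16 (SE; 95% interval 0.04 to 0.73, edgeR adjusted p = 0.732), and it was the only one of 8 genes at an unadjusted p below 0.05, against 6.78% of all genes. The other beta subunit genes were at 0.17 ± 0.10 for Scn2b and 0.08 ± 0.09 for Scn3b, and Scn1a was at -0.17 ± 0.10. All 16 medium spiny neuron markers had positive fold changes here, with a median of 0.29. With the score of that list as a covariate, Scn4b was at 0.04, and without SCFA replicates 2 and 5 it was at 0.18, in both cases not at an unadjusted p below 0.05. The same held without SCFA replicate 2, 3 or 5 or Abx_SCFA replicate 4 or 5, at 0.29 to 0.37.

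The interaction asks whether the difference between antibiotics and no antibiotics was the same with and without fatty acids, as (Abx_SCFA minus SCFA) less (Abx minus H2O). Scn1a was at -0.43 ± 0.14 (SE; 95% interval -0.73 to -0.14, edgeR adjusted p = 0.622) and Scn8a at -0.39 ± 0.17 (edgeR adjusted p = 0.622). These 2 of 8 genes were at an unadjusted p below 0.05, against 7.85% of all genes. Scn4b was at 0.29 ± 0.25, Scn9a at 0.19 ± 0.28, Scn2a at -0.16 ± 0.15 and Scn2b at 0.15 ± 0.15, each with an interval that spans 0. The value of Scn8a with the cortical score in the fit was -0.15, with the myelin score -0.21 and with the medium spiny neuron score -0.29, in no case at an unadjusted p below 0.05. Scn9a turned to -0.39 with the cortical score and was then at such a p. Scn1a was at -0.40 with the cortical and -0.33 with the myelin score. The interaction uses the same libraries as the comparisons before it, and the alternatives are refits of these libraries, so that neither is independent of them. Scn1a was at an unadjusted p below 0.05 under each alternative run, and Scn8a lost that p also without H2O replicate 1 or 2, Abx replicate 3 or 4, SCFA replicate 4 or Abx_SCFA replicate 5, and with the last of these left out along with H2O replicate 4, at -0.38 to -0.35.

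**Figure D2:**
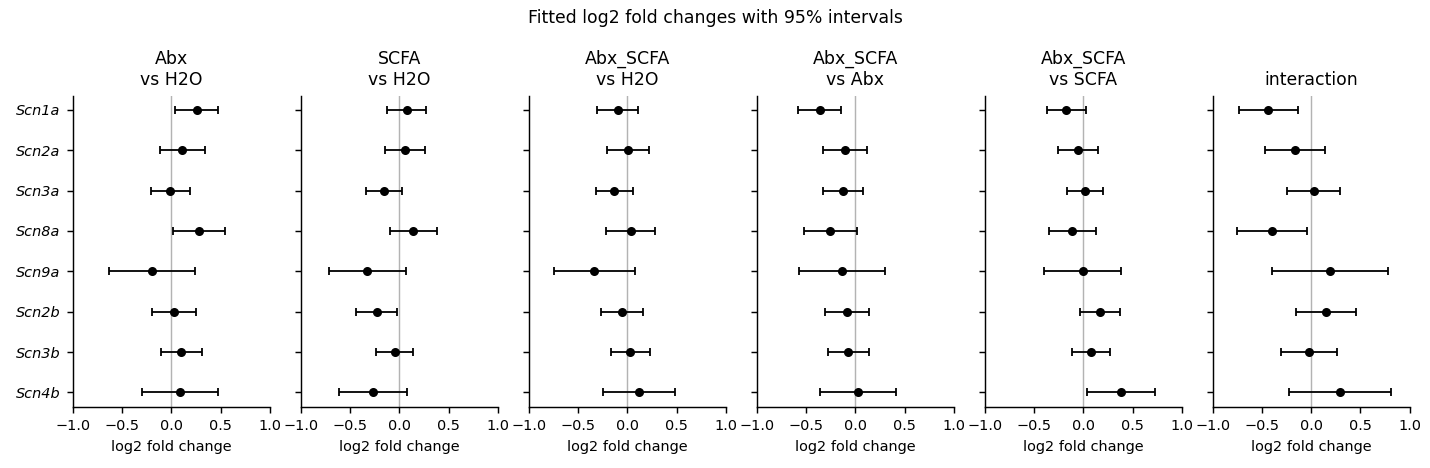
Fitted log2 fold change of each sodium channel gene (points) with its 95% interval (bars) in the 6 comparisons, on 1 horizontal scale. Most intervals span 0; among the others, those of Scn1a and Scn8a in Abx vs H2O lie above it, and that of Scn1a in Abx_SCFA vs Abx, -0.58 to -0.14, lies below it.

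Across the 20 libraries, positive values of r outnumbered negative ones among pairs of sodium channel genes. The same counts were not made for other genes, and whether they are particular to this family was not tested. Of 28 pairs of genes 23 had a positive Pearson r of log2 CPM, and 9 pairs, all positive, had an adjusted p below 0.05 over the 52 relations computed (permutation test with 100000 resamples, two-sided). Scn2a and Scn8a had r = 0.79 (Spearman rho = 0.73, permutation p = 3e-05, adjusted p = 0.00039), and 0.60 without the 2 libraries farthest from the median of Scn2a. Within number series it was 0.48 over the 9 H2O and Abx libraries and 0.95 over the 11 libraries with fatty acids.

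Scn3a, Scn2b and Scn3b also varied together. Scn3a had r = 0.79 with Scn2b (rho = 0.65, permutation p = 3e-05, adjusted p = 0.00039), and 0.76 with Scn3b (rho = 0.61, permutation p = 0.0001, adjusted p = 0.00104). Scn2b and Scn3b had r = 0.74 (rho = 0.68, permutation p = 0.0002, adjusted p = 0.00171). These 3 values were 0.78, 0.62 and 0.68 over the 9 H2O and Abx libraries and 0.73, 0.88 and 0.79 over the 11 others, and without the 2 farthest libraries 0.68, 0.58 and 0.66.

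Scn1a and Scn8a, the genes with the smallest p in Abx vs H2O, had r = 0.65 (rho = 0.48, permutation p = 0.00162, adjusted p = 0.00936). The adjusted p of its rho was 0.0954, and the relation rested in part on SCFA replicate 5 and Abx replicate 4, without which r was 0.39. Over the libraries without and with fatty acids r was 0.52 and 0.80. With the alpha subunit genes, Scn4b had no adjusted p below 0.05. Its r was 0.50 with Scn3a, 0.40 with Scn9a, -0.07 with Scn2a, -0.16 with Scn8a and -0.21 with Scn1a. Some of these took opposite signs in the H2O and Abx libraries and in those with fatty acids, at 0.69 and -0.34 for Scn2a, 0.12 and -0.60 for Scn1a, 0.24 and -0.39 for Scn8a, and -0.12 and 0.60 for Scn9a. Scn4b shared variation with Scn3b (r = 0.61, rho = 0.62, adjusted p = 0.0161) and Scn2b (r = 0.60, rho = 0.56, adjusted p = 0.0172). Over the libraries without and with fatty acids these were 0.77 and 0.52 for Scn3b and 0.73 and 0.51 for Scn2b, and without the 2 farthest libraries 0.39 and 0.67. The remaining pairs below 0.05 were Scn2a with Scn3b (r = 0.62, rho = 0.74) and Scn2a with Scn2b (r = 0.53, rho = 0.61). Their r over the libraries without and with fatty acids was 0.85 and 0.52, and 0.80 and 0.46.

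**Figure D3:**
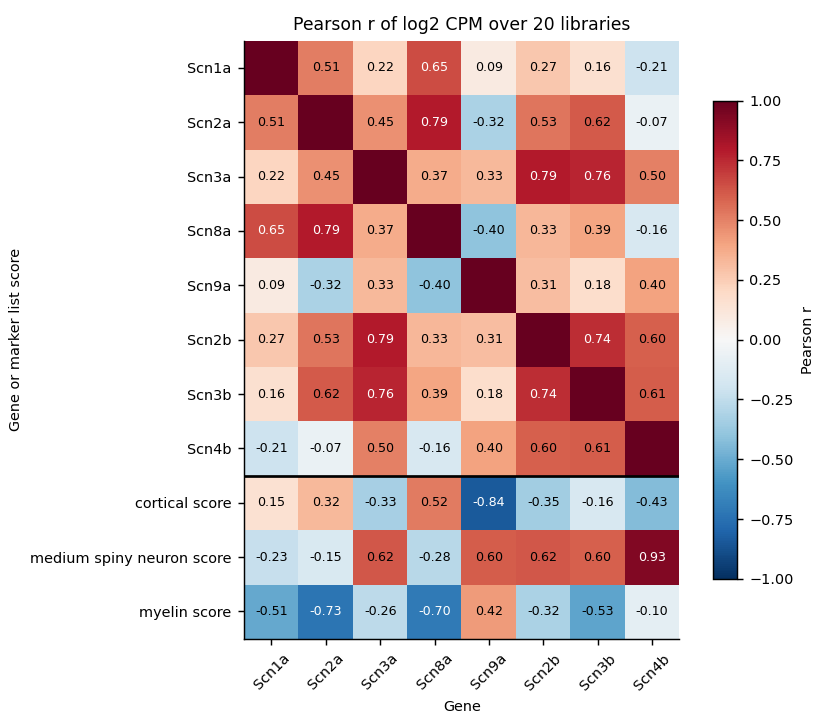
Pearson r of log2 CPM over the 20 libraries between sodium channel genes (upper block, both axes) and between each gene and the 3 marker list scores (lower block, rows); colour runs from -1 (blue) to 1 (red). Scn4b with the medium spiny neuron score (0.93) and Scn9a with the cortical score (-0.84) are the cells farthest from 0.

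The 2 values of r farthest from 0 were both with tissue markers. Scn4b followed the medium spiny neuron score with r = 0.93 (rho = 0.89, permutation p = 1e-05, the smallest that 100000 resamples can give, adjusted p = 0.00026). It was 0.92 after centring on group means, 0.87 over the 9 H2O and Abx libraries, 0.95 over the 11 others, and 0.82 without SCFA replicates 2 and 5. Scn4b is not in the list behind that score. Scn3a (r = 0.62, adjusted p = 0.0166), Scn2b (0.62, 0.0148) and Scn3b (0.60, 0.0161) had smaller values, with rho at 0.46, 0.67 and 0.65, of which that of Scn3a had an adjusted p of 0.107. Over the libraries without or with fatty acids the values of r ran from 0.51 to 0.78, and without SCFA replicates 2 and 5 from 0.58 to 0.73. For Scn9a, r with that score was 0.60 and 0.15 without SCFA replicates 2 and 5, so that this relation rests on those libraries.

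Scn9a ran against the cortical score, with r = -0.84 (rho = -0.88, permutation p = 1e-05, the smallest that can be given, adjusted p = 0.00026). Here r was -0.85 after centring on group means, -0.82 and -0.85 over the libraries without and with fatty acids, and -0.87 without the 2 farthest libraries, H2O replicates 1 and 3. Scn8a ran with the cortical score (r = 0.52, rho = 0.50, permutation p = 0.018, adjusted p = 0.0493), while the adjusted p of its rho was 0.0905. The r of Scn8a was 0.70 and 0.64 over the libraries without and with fatty acids and 0.59 without the 2 farthest libraries. 

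The myelin score ran against Scn2a (r = -0.73, adjusted p = 0.00171), Scn8a (-0.70, 0.00617) and Scn3b (-0.53, 0.0443). Without Abx replicate 3 and SCFA replicate 5, the libraries with the least Mbp, these were -0.50, -0.36 and -0.58, so that the relation of Scn8a rests in part on those libraries. Spearman's rho was -0.55, -0.53 and -0.54, with adjusted p-values of 0.0488, 0.0577 and 0.0577. The values of r were -0.69, -0.57 and -0.66 over the 9 H2O and Abx libraries and -0.78, -0.81 and -0.45 over the 11 others. In all, 10 of 24 relations of a gene with a score had an adjusted p below 0.05, a share that was not computed for other genes. Scn1a had none of these 10 relations, and its r with the myelin score was -0.51 with an adjusted p of 0.0504.

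**Figure D4:**
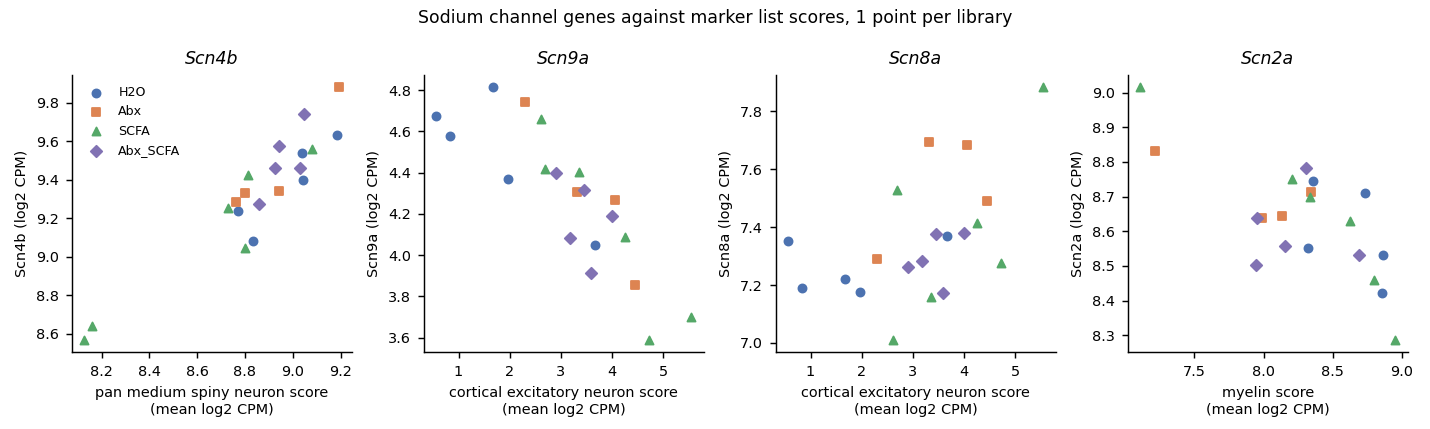
Level of 4 sodium channel genes (vertical axes, log2 CPM) against the mean log2 CPM of a marker list (horizontal axes), 1 point per library, with colour and shape by drink group. Scn4b follows the medium spiny neuron score (r = 0.93), Scn9a runs against the cortical score (-0.84), Scn8a runs with it (0.52) and Scn2a runs against the myelin score (-0.73).

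Among 11672 genes outside the family with a mean of at least 1 CPM, the genes whose log2 CPM over the 20 libraries was most like each sodium channel gene were ranked by Pearson r, as a description. For Scn4b they were Hpca, a neuronal calcium sensor (0.97), Drd2, the D2 dopamine receptor (0.96), and Ppp1r1b, the dopamine-regulated phosphatase inhibitor of medium spiny neurons (0.94). For Scn2a they were Hspa12a (0.94), Syn2, a synaptic vesicle protein (0.94), and Sgtb (0.93), and for Scn8a they were Slc8a2, a sodium-calcium exchanger (0.92), Ankrd52 (0.91) and Tmem63c (0.90). Scn2b was most like Plxna2, a semaphorin receptor (0.93), Gria1, an AMPA receptor subunit (0.93), and Arhgap26 (0.93). Scn3b was most like Rnft2 (0.90), Clvs1 (0.89) and the potassium channel gene Kcnq5 (0.87). Scn3a was most like Gpr63 (0.90), Grm5, a metabotropic glutamate receptor (0.87), and Slc7a14 (0.87). Scn9a was most like Fat1 (0.87), Ctnnal1 (0.87) and the axon guidance receptor gene Robo1 (0.87). Scn1a was most like Spata6l (0.88), Atp2b3, a plasma membrane calcium pump (0.82), and Abca5 (0.80).

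The family has 6 more genes in the table, of which 5 were tested; Scn10a had 1 to 11 counts per library and was not. With edgeR 0 passed an adjusted p of 0.05. Scn7a, which encodes a sodium-sensing channel of glia, stood at 0.856 to 1.13 CPM in H2O and 1.31 to 1.74 CPM in Abx, with no overlap, and its log2 fold change was 0.63 ± 0.22 (SE, edgeR adjusted p = 0.563) on 16 to 44 counts. Scn4a, the skeletal muscle channel gene, stood at 4.60 to 8.60 CPM in H2O and 2.09 to 3.75 CPM in Abx_SCFA, again with no overlap, at -1.005 ± 0.30 (edgeR adjusted p = 0.815).

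Sodium channels are held at the axon initial segment by ankyrin and spectrin scaffolds and adhesion proteins, and are modulated by fibroblast growth factor homologous factors, calmodulin, kinases and ubiquitin ligases. Of 36 such partner genes 34 were in the table and tested, and 0 passed an adjusted p of 0.05 in any comparison. At an unadjusted p below 0.05 were 0 in Abx vs H2O, 2 higher and 6 lower in SCFA vs H2O, 2 lower in Abx_SCFA vs H2O, 0 in Abx_SCFA vs Abx, 4 lower in Abx_SCFA vs SCFA and 2 negative in the interaction, beside the shares of all genes given above. Their medians were 0.02 in Abx vs H2O, -0.07 in Abx_SCFA vs Abx and within 0.03 of 0 in the other comparisons.

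In Abx vs H2O the partners with the smallest p on each side were Unc79, a subunit of the sodium leak channel (0.18 ± 0.09), and Sptbn4, the spectrin of the initial segment (0.21 ± 0.12), and Nfasc, an adhesion protein of nodes and initial segments (-0.25 ± 0.13), and Ptprz1, a glial phosphatase (-0.12 ± 0.06). In SCFA vs H2O they were the matrix gene Tnc (1.15 ± 0.40) and Nrcam, an adhesion protein of nodes (0.38 ± 0.14), and below 0 the scaffold gene Dlg1 (-0.22 ± 0.07) and Fgf14, which binds the tail of the alpha subunit (-0.33 ± 0.13). In Abx_SCFA vs H2O the one named above 0 was Calm3 (0.12 ± 0.11), and below 0 the kinase gene Prkca (-0.25 ± 0.09) and Kcnq3, a potassium channel gene of the initial segment (-0.27 ± 0.10).

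In Abx_SCFA vs Abx the named partner above 0 was Fgf13 (0.15 ± 0.10), and below 0 Kcnq3 (-0.19 ± 0.10) and Prkca (-0.17 ± 0.09). In Abx_SCFA vs SCFA they were the ubiquitin ligase gene Nedd4l (0.16 ± 0.08) and Dlg1 (0.09 ± 0.07), and below 0 the matrix gene Tnr (-0.31 ± 0.12) and Dpysl2 (-0.16 ± 0.07). In the interaction they were Dlg1 (0.20 ± 0.11) and Nedd4 (0.12 ± 0.09), and below 0 Nrcam (-0.56 ± 0.21) and Tnc (-1.35 ± 0.59). These values are log2 fold changes with standard errors from edgeR.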

How the data were processed

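Polyadenylated RNA of the nucleus accumbens was extracted with an RNeasy kit and turned into cDNA with a SMARTer kit, per the labels' protocols. The submitters' processing notes name STAR 2.4.0, FastQC 0.11.6, the build Rnor_6.0 and limma. Counter, annotation and strand setting: not given in the sources used here. The authors deposited raw counts per gene symbol for 20 libraries, of 17525358 to 25731636 counts. No pair of libraries agreed within sampling noise.

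Groups came from the treatment labels, nothing pairs rats across groups, and p-values measure the spread between rats, cage mates included. Rats were treated as independent. If cage mates are alike, standard errors and p-values can be too small, and this could not be checked. Tests were edgeR 4.0.16 quasi-likelihood F tests in R 4.3.3 with TMM scaling, 1 model of 4 groups with 16 residual degrees of freedom, and filterByExpr (10 counts in a library of median size, 15 in total); p-values were adjusted by Benjamini-Hochberg over 12846 genes, with a call at 0.05. Standard errors come from the F statistic. The fit was tested on simulated data. CPM use TMM-scaled library sizes, and log2 CPM a prior count of 2; a marker score is the mean log2 CPM of its list. Alternatives were RLE scaling, DESeq2 1.42.0, limma-voom 3.58.1, sample weights, no filter, fewer groups, covariates, and libraries left out. The genes, lists, doubted libraries and promoter motifs were chosen with earlier results of these data known. The text names all 8 genes, other genes of the family, the 3 genes most like each, and per comparison the 2 partners of smallest p on each side of 0; genes that fall under this rule and are not named are not reported here. Ank2 and Unc80 of the partner list were not analysed here. Promoter sequences are from RefSeq (GRCr8), not the authors' build.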

Additional observations from a re-analysis of the deposited data

Results flagged for a closer look

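Of 64 groups of values examined (the level of each of the 8 genes in each drink group, and its share among alpha or beta subunit counts), 2 held a library far from the others of its group by Dixon's test, which chance alone gives in about 1 of 20. Scn1a was at 74.1 CPM in SCFA replicate 5, against 54.0 to 59.9 CPM in the other SCFA libraries. Scn4b was at 943 CPM in Abx replicate 3, against 623 to 648 CPM in the other Abx libraries. SCFA replicate 5 had the highest Slc17a7 and the lowest Drd1 of all libraries, and Abx replicate 3 the lowest Mbp; their part in these values was not tested.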

How the results depend on the processing

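No sodium channel gene passed an adjusted p of 0.05 in the 6 comparisons under any of 32 alternatives, 20 of which leave out 1 library each; the smallest adjusted p of a gene over all of them was 0.106. Over all genes, DESeq2 called 1 in Abx vs H2O, 10 in SCFA vs H2O, 1 in Abx_SCFA vs H2O and 3 in Abx_SCFA vs SCFA, where edgeR called 0. With edgeR, leaving out H2O replicate 4 and Abx_SCFA replicate 5 gave 2 called in SCFA vs H2O, 5 in Abx_SCFA vs SCFA and 1 in the interaction, leaving out H2O replicate 4 alone gave 2 in each of those 2 comparisons between groups, and Abx_SCFA replicate 5 alone 1 in each. The 48 fold changes of the 8 genes gave 1528 alternative values. None that had an unadjusted p below 0.05 changed sign, 39 lost and 20 gained such a p, and 36 others moved by more than 1 standard error; 94 values that had no such p took the opposite sign. Fitting only the groups compared gives no value for the interaction. SCFA replicates 2 and 5 had the highest Slc17a7, and H2O replicate 4 and Abx_SCFA replicate 5 had low Cend1 in earlier results. The number of genes at an unadjusted p below 0.05 moved as follows. In Abx vs H2O it was 2, with 1 under a covariate for the cortical score (Scn9a in place of Scn1a and Scn8a) or without H2O replicate 4 and Abx_SCFA replicate 5, and 0 with the myelin score. In SCFA vs H2O it was 1, and 0 with number series, the cortical score or the medium spiny neuron score or without SCFA replicates 2 and 5, and 2 with the myelin score; as all SCFA rats are in the 4-hundreds, the number series covariate there only carries over the difference between the 2- and 3-hundreds and does not separate series from treatment. In Abx_SCFA vs H2O it was 0, and 1 with sample weights and 2 with only the groups compared. In Abx_SCFA vs Abx it was 1, and 2 with sample weights, only the groups compared, the cortical score or without SCFA replicates 2 and 5. In Abx_SCFA vs SCFA it was 1, and 2 with sample weights or the myelin score, and 0 with the medium spiny neuron score, without SCFA replicates 2 and 5 or without H2O replicate 4 and Abx_SCFA replicate 5. In the interaction it was 2, again 2 with the cortical score, where Scn9a took the place of Scn8a, and 1 with the medium spiny neuron score, the myelin score or without H2O replicate 4 and Abx_SCFA replicate 5. Leaving out 1 library at a time gave 0 to 2 in Abx vs H2O, 0 to 3 in SCFA vs H2O, 0 to 1 in Abx_SCFA vs H2O, 1 to 2 in Abx_SCFA vs Abx, 0 to 2 in Abx_SCFA vs SCFA and 1 to 2 in the interaction. The cause of these moves was not tested. With 4 to 6 rats a group the precision is limited by the spread between rats, not by depth: Scn9a, the gene with the fewest reads, had 232 to 622 counts per library. No paired analysis was possible because nothing in the labels pairs rats across groups.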
